A study of Mus musculus with 18 samples.

Results

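The genes described here are 8 mouse genes known from oocytes: the oocyte secreted protein genes Oosp1, Oosp2 and Oosp3, the oocyte maturation genes Omt2a and Omt2b, and the 2′-5′ oligoadenylate synthetase 1 genes Oas1d, Oas1e and Oas1h. They were taken by symbol from tables of 47069 genes, and all 8 were among the 12161 genes kept after a filter on low counts. RNA was sequenced from single oocytes of C57BL/6JAusb mice at 2 stages: the germinal vesicle (GV) stage, in meiotic prophase arrest, and metaphase of the second meiotic division (MII), which a mature egg reaches. At each stage there were 3 conditions: 12-month-old mice given nicotinamide mononucleotide (NMN, an NAD precursor) at 2 g/L in the drinking water for 4 weeks, untreated 12-month-old mice, and untreated 4-week-old mice. Per the labels, each oocyte was lysed softly, the nucleus was spun down and the library was made from the supernatant, so the values describe RNA outside the pellet. The 16 oocytes used were 3 MII aged NMN, 3 MII aged control, 3 MII young control, 3 GV aged NMN, 2 GV aged control and 2 GV young control. The labels do not say which animals the oocytes came from, so each condition at each stage counts as 1 sample. No test is given for that reason: differences are described by the value in every oocyte, by whether the oocytes of 2 groups overlap and by a 2-fold threshold, and the spread between oocytes may be technical.

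The OOSP proteins are small, predicted secreted proteins related to placenta-specific protein 1 (PLAC1), and their genes lie side by side in the genome. Omt2a and Omt2b encode a pair of short, similar proteins and are named for oocyte maturation. Oligoadenylate synthetases bind double-stranded RNA and make 2′-5′ linked oligoadenylates in the interferon response. The mouse has a large Oas1 cluster, in which Oas1a and Oas1g encode active synthetases, while Oas1d is known as an oocyte gene whose protein lacks synthetase activity. Transcription largely stops in the fully grown oocyte, so maturation acts on stored messenger RNA. Only oocytes were sequenced, so whether these genes are restricted to oocytes was not examined.

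Each family forms a cluster on GRCm38. Oosp2 (ENSMUSG00000055895, chromosome 19, 11647279 to 11660559, minus strand), Oosp1 (ENSMUSG00000041857, 11667460 to 11691150, minus strand) and Oosp3 (ENSMUSG00000055933, 11697055 to 11711874, plus strand) are neighbours. Omt2a (ENSMUSG00000066463, chromosome 9, 78311972 to 78314796, minus strand) and Omt2b (ENSMUSG00000038750, 78327589 to 78329620, plus strand) point away from each other. Oas1e (ENSMUSG00000066867, chromosome 5, 120786226 to 120795530, minus strand), Oas1h (ENSMUSG00000001168, 120861421 to 120873506, plus strand) and Oas1d (ENSMUSG00000032623, 120914536 to 120921652, plus strand) lie within the Oas1 cluster. The last 240 bases of the Omt2 coding sequences are shown because their likeness decides what a read can tell apart. They are from GENCODE vM21 on GRCm38, and capitals mark bases that differ between the aligned sequences or have no counterpart in the other.
Omt2a: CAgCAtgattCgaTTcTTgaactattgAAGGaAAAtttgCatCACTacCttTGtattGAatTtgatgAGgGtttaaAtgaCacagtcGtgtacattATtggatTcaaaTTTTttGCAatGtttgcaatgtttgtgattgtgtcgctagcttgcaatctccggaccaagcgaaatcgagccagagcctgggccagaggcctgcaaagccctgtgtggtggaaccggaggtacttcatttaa
Omt2b: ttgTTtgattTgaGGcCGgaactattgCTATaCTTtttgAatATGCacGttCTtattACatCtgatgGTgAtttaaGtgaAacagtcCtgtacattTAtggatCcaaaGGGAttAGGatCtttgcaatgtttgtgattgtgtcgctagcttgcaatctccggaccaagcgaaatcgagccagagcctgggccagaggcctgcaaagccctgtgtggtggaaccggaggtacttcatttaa
The coding sequence of Omt2a has 303 bases and that of Omt2b 360. Of 294 aligned bases, 81.3% were identical, and the capitals stop before the 3′ end because the last 120 bases of both were identical. The transcripts shared 37.0% of the 50-base words of Omt2a and 35.2% of those of Omt2b, in each case only with the other gene. In the deposited expected counts, Omt2a alone was a whole number (within 0.005) in 1 of 16 oocytes, whereas Omt2a and Omt2b together summed to a whole number (within 0.015) in 16 of 16. The sum over both genes is therefore the firmer value, and the division between them is an estimate. Oas1d and Oas1e were each whole (within 0.005) in 6 of 16 oocytes, Oas1h in 9 and each Oosp gene in 16. Where an Oas1 count was not whole, it is an estimate of a division as well. Oosp1 and Oosp2 shared no 50-base word with another gene, Oosp3 1.46%, Oas1h 0.47%, Oas1d 6.24% and Oas1e 10.7%, the last mostly with Oas1c. Oas1d and Oas1e coding sequences were 90.7% identical over 1086 aligned bases, against 60.2% to 63.8% between the Oosp genes. Oas1e also overlaps an antisense gene, Gm43069, and Oosp3 a pseudogene, Gm19224. Their highest counts were 2.02 and 0, and whether the counting used strand is not given in the sources used here.

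Promoters of 5 of the 8 members were found in a RefSeq table on GRCm38.p6, those of Oosp1, Oosp2, Omt2a, Omt2b and Oas1h. Those of the neighbours Oosp1 and Oosp2 are shown because these genes differed most within a family. Capitals mark the E-box CANNTG, the general form of the site bound by basic helix-loop-helix factors such as FIGLA, and the Oosp1 stretch ends at its first annotated exon (chr19:11691151-11691301, minus strand; Oosp2 chr19:11660560-11660809, minus strand).
Oosp1: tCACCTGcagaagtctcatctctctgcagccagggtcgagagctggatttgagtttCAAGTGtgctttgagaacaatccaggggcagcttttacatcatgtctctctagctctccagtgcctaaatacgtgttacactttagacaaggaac
Oosp2: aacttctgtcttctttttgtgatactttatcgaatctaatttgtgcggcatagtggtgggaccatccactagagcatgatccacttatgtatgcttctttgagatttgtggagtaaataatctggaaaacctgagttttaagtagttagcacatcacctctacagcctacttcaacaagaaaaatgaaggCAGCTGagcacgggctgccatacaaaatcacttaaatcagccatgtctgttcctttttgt
In the full 250 bases before the RefSeq start, Oosp1 held 5 E-boxes, 2 of them in the stretch shown, Omt2a 3, Omt2b 2, Oas1h 2 and Oosp2 1. Of 32851 promoters of the same length, 66.2% held at least 1 E-box and 1.15% held 5 or more. A homeodomain core, TAATTA or TAATTG, was found once, in Omt2b, and in 11.3% of all promoters. TATAAA was in none of the 5, against 12.4% of all promoters. Both strands were searched, and a match describes letters only. The windows of Omt2a and Omt2b lie inside the longer GENCODE genes.

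Library totals ran from 2756181 to 5586894 expected counts, with a median of 3947706. A floor of 3 counts came to 0.537 to 1.09 CPM (counts scaled to a common library size), and the lowest count of any member in any oocyte was 42.1, for Oas1e in the first MII aged NMN oocyte. Titles with "batch 2-" were read as batch 2 and the rest as batch 1, among them the second MII aged NMN oocyte, whose title reads "batch 2" and is also taken literally. The files labelled GV young control 1 and GV young control batch 2-1 were identical and were counted once, as batch 1. In that library 14.5% of the genes detected had counts that were not whole, close to the 11.9% to 14.6% of batch 2 and below the 19.5% to 29.0% of the other batch 1 libraries. One GV aged control library of batch 2 held 5009 counts, among them 1 of Oosp1, 1 of Omt2a and none of the other members, and was left out. The batch 1 MII aged NMN oocytes stood apart, with 43.0% and 33.2% of counts from mitochondrial genes and 6444 and 5679 genes detected. The batch 2 MII aged NMN oocyte had 6.18% and 7725 genes, and the other 13 oocytes 2.76% to 24.4% and 8539 to 13816 genes. Summed oocyte markers ran from 1402 to 21681 CPM. Of these markers Sohlh1 was at 0 in every group but GV aged control, Ddx4 in MII aged NMN and GV young control, and Figla in MII aged NMN oocytes. Summed cumulus and granulosa markers reached 294 CPM and immune markers 237 CPM, while Amh, Foxl2, Ptprc, C1qa and Tyrobp were at 0 in every group. In bulk RNA of a cell, a larger share for one gene and a smaller amount of other RNA cannot be told apart.

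Per transcript length, the Omt2 genes had the highest mean TPM of the members in every group. In TPM, the deposited abundance scaled for transcript length and library, Omt2b averaged 34490.2 ± 18801 in MII aged NMN (SD between oocytes, n = 3), 11017 ± 4420.0 in MII aged control (n = 3) and 6212 ± 5154 in MII young control (n = 3). At the GV stage Omt2b averaged 6351 ± 4171 TPM in aged NMN (n = 3), 8077 ± 1446 in aged control (n = 2) and 15457 ± 2738 in young control (n = 2). The pair ranked between 2 and 67 by TPM among all genes in all 16 oocytes. In the first GV aged NMN oocyte Oosp2, at 2749 TPM, was above Omt2b (2487) and Omt2a (1908). The Oosp genes had ranks from 17 to 773 and the Oas1 members from 29 to 3074. In MII young control oocytes Oas1d and Oas1e averaged 1706 and 1297 TPM, against 1185 for Oosp2. In MII oocytes Oosp3 had the highest TPM of the Oosp genes in 7 of 9. In all 7 GV oocytes Oosp2 was highest, with 2121 to 4014 TPM, against 1148 to 2001 TPM for Oosp3 and 985 to 1284 TPM for Oosp1, which overlapped. Among the Oas1 members, mean TPM was highest for Oas1d in the MII groups and for Oas1e or Oas1h in the GV groups. The oocytes of the highest gene overlapped those of another Oas1 member in every group but GV young control. There Oas1e had 305 and 258 TPM, Oas1h 193 and 228, and Oas1d 157 and 123. Within each of the 7 GV oocytes Oas1d was below both Oas1e and Oas1h.

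**Figure D1:**
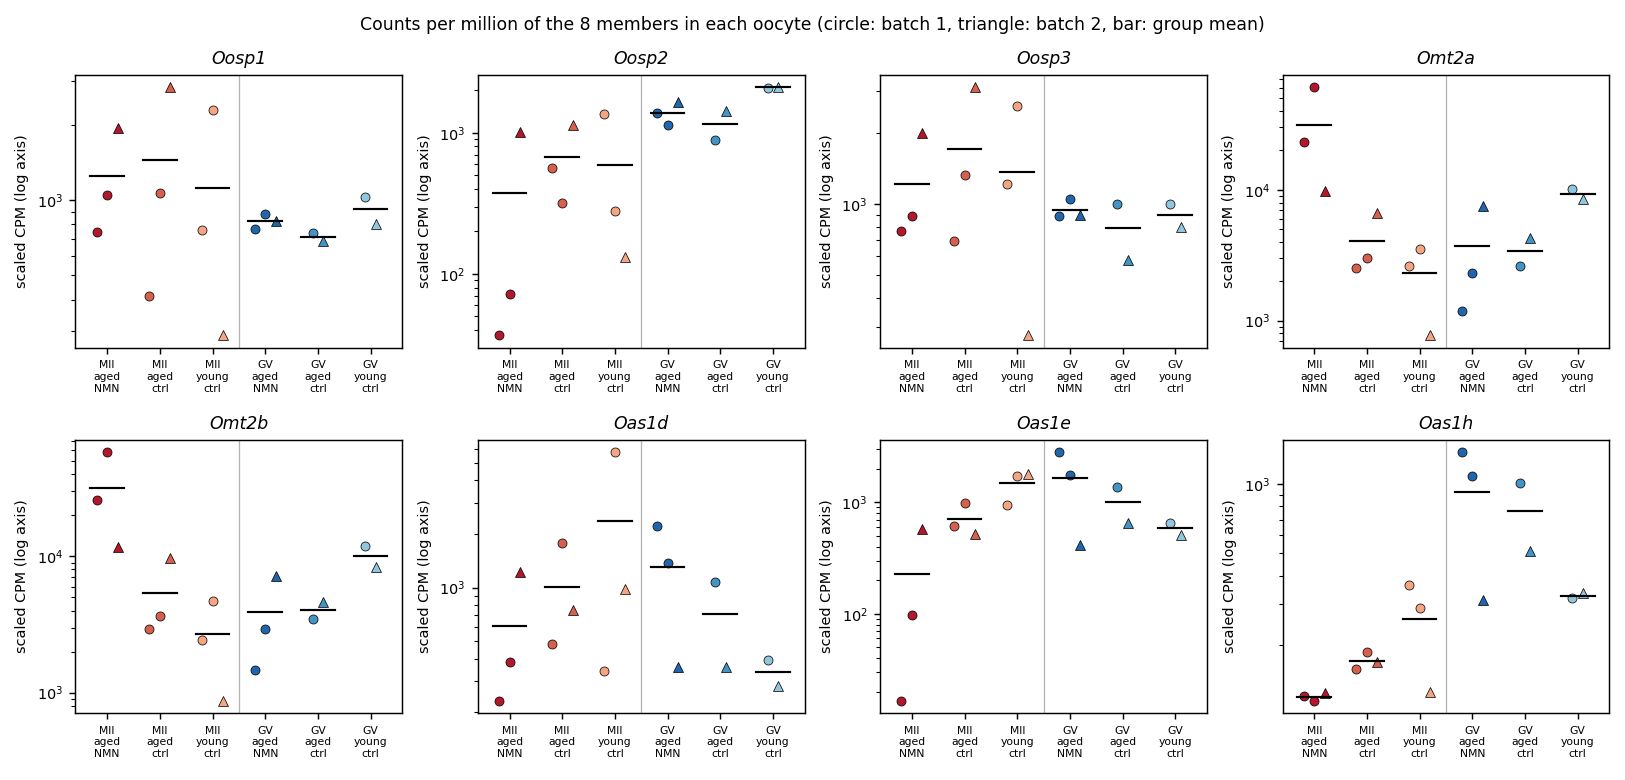
Scaled CPM of the 8 members in each of the 16 oocytes, on log axes, with MII groups left of GV groups in each panel; points are oocytes, circles batch 1, triangles batch 2 and bars group means. The library deposited under 2 labels is drawn as batch 1. The group means of Omt2a and Omt2b are highest in MII aged NMN oocytes, and Oosp2 is at 887 or more in every GV oocyte.

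Between groups, levels are compared as CPM scaled by trimmed mean of M-values (TMM) factors. The values of a group follow one another with batch 1 oocytes first, and a log2 ratio is that of group means after adding 1 CPM. Omt2a had 23353, 61176 and 9782 scaled CPM in MII aged NMN oocytes, against 2504, 3036 and 6628 in MII aged control and 2637, 3513 and 772 in MII young control oocytes. At the GV stage Omt2a had 1194, 2307 and 7584 scaled CPM in aged NMN, 2603 and 4261 in aged control, and 10228 and 8480.3 in young control oocytes. All 3 MII aged NMN oocytes were above all other MII oocytes, and both GV young oocytes were above all other GV oocytes. Omt2b followed Omt2a closely, with 25728, 57948 and 11693 scaled CPM in MII aged NMN, 2912, 3624 and 9714 in MII aged control and 2439, 4738 and 874 in MII young control oocytes. In GV oocytes Omt2b had 1456, 2943 and 7218 scaled CPM in aged NMN, 3492 and 4618 in aged control, and 11802 and 8396 in young control. The pair together made up 4.92%, 11.2% and 3.74% of the TPM of the MII aged NMN oocytes, against 1.36%, 1.71% and 2.61% in MII aged control. The Omt2b to Omt2a ratio of TPM stayed between 0.986 and 1.57 in all 16 oocytes. In the GV groups of aged mice, batch 2 oocytes were higher in Omt2a than batch 1 oocytes of the same condition.

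Among the Oosp genes, Oosp2 separated the stages in 2 of 3 conditions. Oosp2 had 36.8, 71.8 and 1016 scaled CPM in MII aged NMN, 559.8, 320.4 and 1132 in MII aged control and 1359, 281 and 131 in MII young control oocytes. In GV oocytes Oosp2 had 1377, 1136 and 1640.2 scaled CPM in aged NMN, 887 and 1417 in aged control, and 2071 and 2108 in young control. Every MII aged NMN oocyte was below every GV aged NMN oocyte, and the same held for the young groups, while the aged control groups overlapped. Oosp1 had 745, 1049 and 1954 scaled CPM in MII aged NMN, 414, 1072 and 2850.0 in MII aged control and 759, 2302 and 287 in MII young control oocytes. In GV oocytes Oosp1 had 770.2, 878 and 824 scaled CPM in aged NMN, 739 and 687 in aged control, and 1034 and 805 in young control. The MII oocytes lay wide apart and the GV oocytes close together: in MII young control the SD was 1054 around a mean of 1116 scaled CPM (n = 3). Oosp3 had 765, 884 and 1999 scaled CPM in MII aged NMN, 692, 1319 and 3129 in MII aged control and 1211, 2587 and 277 in MII young control oocytes. In GV oocytes Oosp3 had 884, 1050.2 and 894 scaled CPM in aged NMN, 995 and 576 in aged control, and 994 and 795 in young control. The highest and the lowest oocyte of each MII group were the same for Oosp3 as for Oosp1. Plac1, the gene of the related placental protein, averaged 0.313 scaled CPM in MII aged NMN oocytes and between 4.64 and 18.8 in the other 5 groups.

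The Oas1 members spread widely between oocytes in several of the groups. Oas1d had 233, 385 and 1218 scaled CPM in MII aged NMN, 483, 1782 and 748 in MII aged control and 342, 5742 and 978 in MII young control oocytes. In GV oocytes Oas1d had 2214, 1368 and 358 scaled CPM in aged NMN, 1069 and 361 in aged control, and 392 and 282 in young control. Its highest value was in 1 MII young control oocyte, and in the GV groups of aged mice the 3 batch 1 oocytes were above the 2 batch 2 oocytes. Oas1e had 16.6, 97.3 and 572 scaled CPM in MII aged NMN, 611, 995 and 523 in MII aged control and 953, 1718 and 1789.9 in MII young control oocytes. In GV oocytes Oas1e had 2815, 1761 and 415 scaled CPM in aged NMN, 1371 and 654 in aged control, and 657 and 508 in young control. The batch 1 MII aged NMN oocytes were the lowest of all 16 for Oas1e. Oas1h had 119.8, 114 and 123 scaled CPM in MII aged NMN, 157, 186 and 169 in MII aged control and 365, 289.6 and 125 in MII young control oocytes. In GV oocytes Oas1h had 1375, 1087 and 314 scaled CPM in aged NMN, 1007 and 513 in aged control, and 319 and 335 in young control. In scaled CPM Oas1h was the tightest member in the MII groups of aged mice, and its 8 lowest oocytes of 16 were MII oocytes. The pooled Oas1h counts of MII aged NMN oocytes, 1064, gave 95.3 unscaled CPM with an exact 95% Poisson interval of 89.6 to 101, which covers counting error only. In that group the SD of Oas1h between oocytes, 4.36 around a mean of 119 scaled CPM (n = 3), was no wider than counting error. By TPM the SD of Oas1h in the same oocytes was 46.5 around a mean of 88.4, so this tightness depended on the measure. In MII aged control the TPM of Oas1h was 198 ± 60.2 and that of Omt2a 7937 ± 2026 (SD, n = 3).

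Maturation was described by setting MII against GV oocytes of the same condition. In young controls Omt2a and Omt2b were lower in MII than in GV oocytes (log2 ratios of -2.02 and -1.91), as was Oosp2 (-1.82), each without overlap between oocytes. Oas1e was higher in MII without overlap (1.35), while Oas1d (2.80), Oosp1 (0.28), Oosp3 (0.60) and Oas1h (-0.33) overlapped; Oosp1 was -0.09 with relative log expression factors and Oas1h 0.45 by mean TPM. Thus 2 members were at least 2-fold higher and 3 at least 2-fold lower, against 36.3% and 25.8% of the 12161 genes. Without overlap, 1 was higher and 3 lower, against 17.5% and 16.3% of genes. The Oas1d ratio was 0.97 without the second MII young oocyte, so that 1 member stayed 2-fold higher, and Oosp1 and Oosp3 were then -0.81 and -0.27. Within batch 2, with 1 oocyte in each group, Oosp1 and Oosp3 were -1.48 and -1.52 and 6 members were at least 2-fold lower. In batch 1 Oosp1 and Oosp3 were 0.57 and 0.93, but the GV side there is the 1 library deposited under both batch labels. With that library placed in batch 2, batch 2 gave -1.67 for Oosp1 and -1.69 for Oosp3.

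In aged controls maturation looked different. Oas1h was lower in MII than in GV oocytes, the only member without overlap (-2.15), while Oosp1 (1.02) and Oosp3 (1.12) were higher in mean but overlapped. Omt2a (0.24), Omt2b (0.42), Oas1d (0.49), Oas1e (-0.51) and Oosp2 (-0.78) were within 2-fold. Accordingly 2 members were at least 2-fold higher and 1 lower, against 16.9% and 35.9% of genes, and without overlap 0 were higher and 1 lower, against 10.8% and 27.4%. The Oosp1 and Oosp3 ratios were 0.01 and 0.01 within batch 1 and 2.05 and 2.44 within batch 2, and without the batch 2 MII oocyte or the batch 2 GV oocyte 0 members were 2-fold higher. Without the batch 2 MII oocyte or the batch 1 GV oocyte 2 were 2-fold lower. With size factors by the relative log expression method 0 were 2-fold higher as well.

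In aged NMN oocytes the Omt2 genes were higher in MII than in GV, with log2 ratios of 3.09 for Omt2a and 3.04 for Omt2b and no overlap. Means of Omt2a were 31437 ± 26634 scaled CPM in MII and 3695 ± 3414 in GV oocytes (SD, n = 3 each), an 8.51-fold ratio. Oosp2 (-1.88) and Oas1h (-2.95) were lower in MII without overlap, and Oas1e (-2.86) and Oas1d (-1.10) were lower with overlap, while Oosp1 (0.60) and Oosp3 (0.37) were within 2-fold. The counts were 2 members at least 2-fold higher and 4 lower, against 16.9% and 46.7% of genes, and 2 higher and 2 lower without overlap, against 3.68% and 27.2%. Batch moved with these values. Omt2a had 4.59 in batch 1 and 0.37 in batch 2, Omt2b 4.25 and 0.70, and Oosp2 -4.51 and -0.69, while Oas1d and Oas1e were -2.53 and -5.30 in batch 1 but 1.76 and 0.46 in batch 2. With the second MII oocyte placed in batch 2, as its title literally reads, batch 2 gave 2.23 for Omt2a, 2.27 for Omt2b and -1.59 for Oosp2, so the batch 2 values depend on how that title is read. In batch 1 the MII side is the 2 oocytes with high mitochondrial shares, and the part of library quality in these ratios was not tested.

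Age was described by setting aged controls against young controls. In GV oocytes Omt2a (-1.45), Omt2b (-1.32), Oosp2 (-0.86) and Oosp1 (-0.37) were lower in aged mice and Oas1h (1.21) was higher, all without overlap. Oas1d (1.08) and Oas1e (0.80) were higher in mean and Oosp3 was -0.19, but 0.18 by mean TPM. Means of Omt2a were 3432 ± 1173 scaled CPM in aged and 9354 ± 1236 in young GV oocytes (SD, n = 2 each). In all, 2 members were at least 2-fold higher and 2 lower, against 31.2% and 12.2% of genes. Without overlap 1 was higher and 4 were lower, against 23.5% and 10.7%. Without the batch 1 GV aged oocyte, Oas1d and Oas1e were 0.10 and 0.16 and 0 members were 2-fold higher, and the same count was found within batch 2, where Omt2a was -0.99. Without the second GV young oocyte 1 was 2-fold higher. Among GV oocytes of aged mice the Oas1 genes were higher in batch 1. Both GV young libraries had the low share of non-whole counts seen in batch 2. For the Oas1 genes batch therefore cannot be told apart from age. The same limit applies to the size of the Omt2a, Omt2b and Oosp2 ratios. These genes were lower in the batch 1 GV aged control oocyte than in the batch 2 one. With the library deposited under 2 labels placed in batch 2, batch 2 gave -1.13 for Omt2a, -1.13 for Omt2b and -0.56 for Oosp2. It gave 0.10 for Oas1d, 0.17 for Oas1e and 0.65 for Oas1h, with 1 aged oocyte in each case. Summed immune markers moved alongside the Oas1 genes, with 237 CPM in the batch 1 GV aged control oocyte and 14.3 in the batch 2 one. They were 9.28 and 8.88 in GV young oocytes. In GV aged NMN they were 101 and 175 CPM in batch 1 and 21.9 in batch 2. In the GV groups of aged mice most of the sum was C1qb, while Ptprc, C1qa and Tyrobp were at 0 in all groups, and the part of these markers in the Oas1 ratios was not tested.

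In MII oocytes no member separated aged from young controls. Omt2b (1.01) was at least 2-fold higher in mean, and Oas1d (-1.23) and Oas1e (-1.07) at least 2-fold lower. Omt2a was 0.81, Oosp1 0.37, Oosp3 0.34, Oosp2 0.18 and Oas1h -0.60. Thus 1 member was 2-fold higher and 2 lower, against 8.45% and 22.6% of genes, and 0 separated the groups in either direction, against 2.25% higher and 6.16% lower. Batch 2, with 1 oocyte a side, gave 3.31 for Oosp1, 3.10 for Oosp2, 3.50 for Oosp3, 3.10 for Omt2a and 3.47 for Omt2b, with 5 members 2-fold higher, where batch 1 gave -1.04, -0.90, -0.92, -0.15 and -0.13. Oas1d was 0.61 without the second MII young oocyte, with 4 members then 2-fold higher and 0 lower, and without either batch 2 oocyte 0 were 2-fold higher and 1 lower; without the first MII aged oocyte 2 were higher and 0 lower. Oosp2 was 1.70 without the first MII young oocyte and -0.42 without the batch 2 MII aged oocyte.

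NMN was described by setting treated against untreated aged mice. In GV oocytes 0 members reached 2-fold in either direction, against 8.53% of genes higher and 12.3% lower. The ratios were 0.21 for Oosp1, 0.27 for Oosp2, 0.26 for Oosp3, 0.11 for Omt2a, -0.07 for Omt2b, 0.88 for Oas1d, 0.72 for Oas1e and 0.28 for Oas1h. Only Oosp1 had no overlap (1 higher and 0 lower, against 5.68% and 8.12% of genes). Scaled by library totals Oosp1 and Omt2a were -0.01 and -0.14, and by relative log expression factors Omt2b was 0.00. Within batch 1 and batch 2, Omt2a was -0.57 and 0.83, Omt2b -0.67 and 0.64, and Oosp3 -0.04 and 0.63. Oas1d was 0.74 and -0.01, Oas1e 0.74 and -0.66, and Oas1h 0.29 and -0.71. Oosp1 and Oosp2 were above 0 in both batches, and batch 2 had 1 oocyte in each group. Without the batch 2 GV aged NMN oocyte, or without the batch 1 GV aged control oocyte, 2 members were at least 2-fold higher.

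In MII oocytes the Omt2 genes were the members that separated NMN from untreated aged mice upwards. Omt2a was 7.75-fold and Omt2b 5.87-fold higher in mean (2.95 and 2.55), and all 3 NMN oocytes were above all 3 untreated ones. Oas1h was lower without overlap (-0.51), Oas1e (-1.63) was lower with overlap, and Oosp1 (-0.21), Oosp2 (-0.84), Oosp3 (-0.49) and Oas1d (-0.71) were within 2-fold. At least 2-fold higher were 2 members and lower 1, against 14.7% and 33.1% of genes, and without overlap 2 were higher and 1 lower, against 1.51% and 11.7%. Within batch 1 Omt2a and Omt2b were 3.93 and 3.68, and within batch 2 they were 0.56 and 0.27, with 0 members 2-fold different. With the second NMN oocyte in batch 2, as its title literally reads, batch 2 gave 2.42 and 1.84, with 2 members 2-fold higher and 2 lower, so these values depend on how that title is read. Oosp2 was -3.60 without the batch 2 NMN oocyte, with 4 members then 2-fold lower, and 0.60 with that oocyte alone on the NMN side. Without either batch 1 untreated oocyte 2 members were 2-fold lower, by mean TPM 4 were, and with library totals 3. The 2 NMN oocytes with the largest Omt2 values were those with mitochondrial shares of 43.0% and 33.2% and the fewest genes detected, and the part of this in the Omt2 ratios was not tested.

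**Figure D2:**
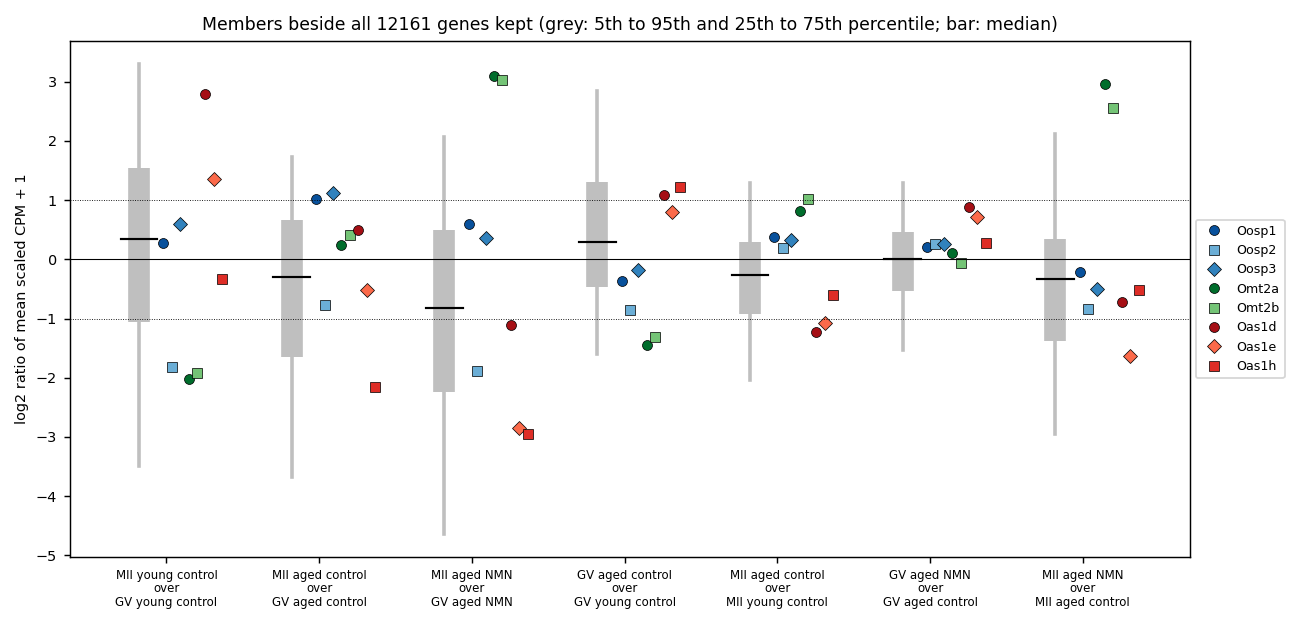
Log2 ratios of mean scaled CPM plus 1 for the 8 members in 7 comparisons, beside all 12161 genes kept (thin grey line, 5th to 95th percentile; thick grey line, 25th to 75th; bar, median; dotted lines, 2-fold). Omt2a and Omt2b lie near 3 in both comparisons with MII aged NMN oocytes on top, and near -2 for maturation in young controls.

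Set beside all genes, the median log2 ratio of the 8 members was -0.03 in young maturation (all genes 0.35), 0.33 in aged control maturation (-0.29) and -0.37 in aged NMN maturation (-0.82). For age it was -0.28 in GV (all genes 0.29) and 0.26 in MII (-0.27), and for NMN 0.26 in GV (0.01) and -0.50 in MII (-0.33). These medians hide members on both sides of 0. In 6 of the 7 comparisons both Omt2 genes lay on one side and at least 2 of the 3 Oas1 genes on the other. Single batches did not always keep this order. In batch 2, Omt2a, Omt2b, Oas1d and Oas1e were all above 0 for maturation in aged NMN and for NMN in MII. In batch 1, the Omt2 and Oas1 members were all below 0 for age in MII. For aged control maturation in batch 1, Omt2a was 0.09 and Omt2b -0.10. The comparisons share groups with one another, so their values are not independent.

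Proportions within a family do not depend on library scaling. Oosp2 took 3.20% to 46.3% of the summed TPM of the 3 Oosp genes in the 9 MII oocytes, against 41.0% to 62.2% in the 7 GV oocytes. In MII aged NMN oocytes it was 3.20%, 3.64% and 23.6%, in MII aged control 36.3%, 15.04% and 20.1%, and in MII young control 46.3%, 7.18% and 22.9%. Only the first MII young oocyte reached into the GV range. The Oosp3 to Oosp1 ratio of TPM had no such difference, with 0.919 to 2.39 in MII and 1.06 to 1.85 in GV oocytes. Oas1e over Oas1d was 0.0818 to 3.28 by TPM in MII oocytes, against 1.36 to 2.13 in GV oocytes. In MII aged NMN oocytes it was 0.0818, 0.289 and 0.543, below all GV oocytes. It was 1.48, 0.677 and 0.818 in MII aged control and 3.28, 0.357 and 2.14 in MII young control oocytes. Both of these MII groups thus also held values below all GV oocytes. Oas1h over Oas1d was 0.104 to 1.84 by TPM in MII oocytes, against 1.13 to 2.28 in GV oocytes, and 8 of 9 MII oocytes were below every GV oocyte.

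**Figure D3:**
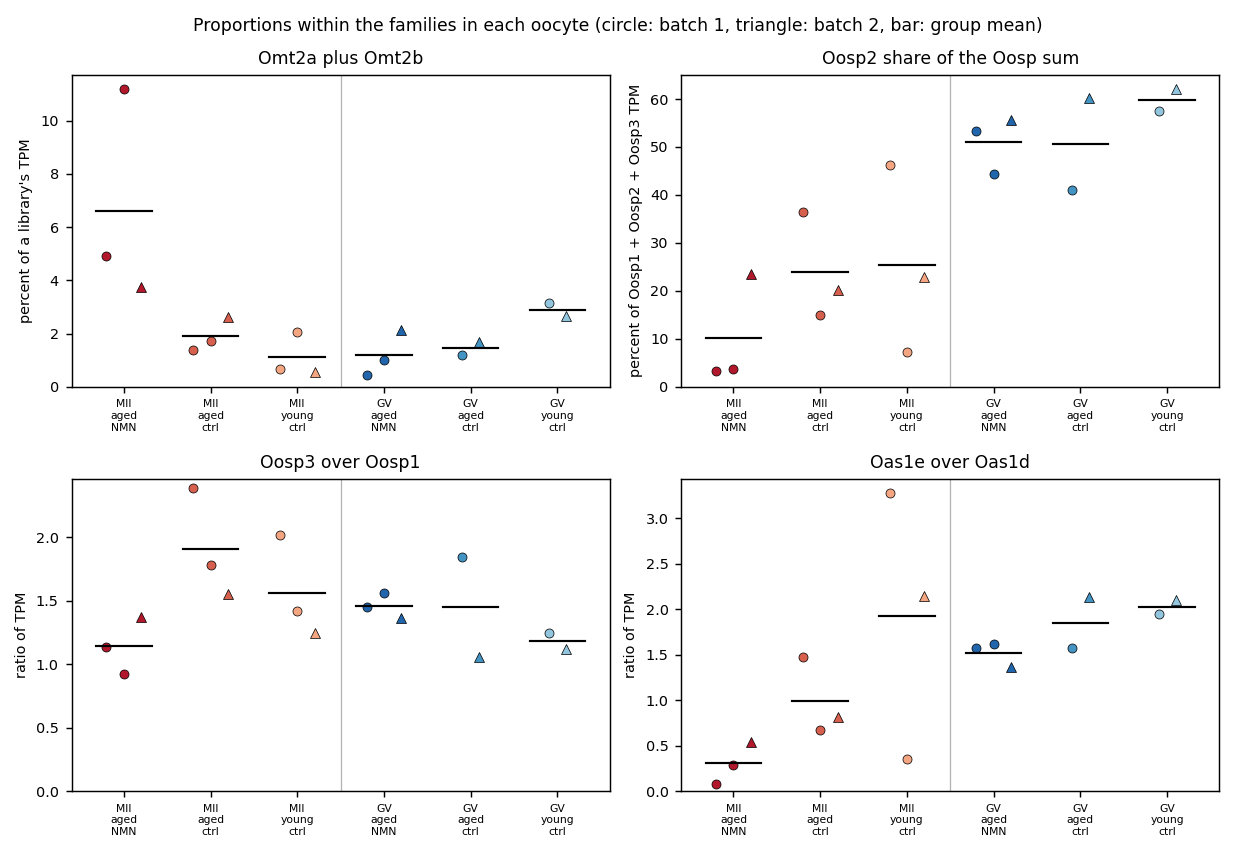
Omt2a plus Omt2b as percent of TPM, Oosp2 as percent of the Oosp sum of TPM, and the TPM ratios Oosp3 over Oosp1 and Oas1e over Oas1d, in each oocyte, with MII groups left of GV groups; circles are batch 1, triangles batch 2 and bars group means. For the Oosp2 share, 8 of 9 MII oocytes lie below the 41.0% to 62.2% of GV oocytes.

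The other 9 listed genes of the Oas family were mostly near 0. Oas1c, a gene of the same cluster, was the exception and averaged 149 scaled CPM in MII aged NMN, 179 in MII aged control, 296 in MII young control, 802 in GV aged NMN, 489 in GV aged control and 409.5 in GV young control oocytes. Oas1f averaged 0, 6.01 and 1.92 scaled CPM in the same MII groups and 89.1, 69.0 and 25.7 in the GV groups, and it too was higher in batch 1 oocytes of the GV aged groups. Oas1b, a gene linked in mice to flavivirus resistance, averaged at most 26.2 scaled CPM, in GV aged NMN oocytes. Oas1a, Oas1g, Oas3, Oasl1 and Oasl2 averaged at most 7.38, and Oas2 had no count in any oocyte. Of the 9, 6 passed the filter. Maturation had 6 of these 6 at least 2-fold lower in aged controls (all genes 35.9%). It had 5 lower and 1 higher in aged NMN (all genes 46.7% and 16.9%) and 1 lower and 1 higher in young controls (25.8% and 36.3%). Age had 5 of 6 at least 2-fold higher in GV (all genes 31.2%) and 1 higher and 1 lower in MII (8.45% and 22.6%). NMN had 1 higher and 1 lower in GV (all genes 8.53% and 12.3%) and 2 higher and 1 lower in MII (14.7% and 33.1%). GV aged control oocytes of batch 1 and 2 had 109.1 and 0 expected counts of Oas1b and 84 and 0 of Oas1g. Oasl1 had 51 and 0 there and Oas3 0 and 17, while Oas1c and Oas1f had counts in both. The GV aged control means of Oas1b, Oas1g, Oasl1 and Oas3 thus rest on 1 oocyte each.

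**Figure D4:**
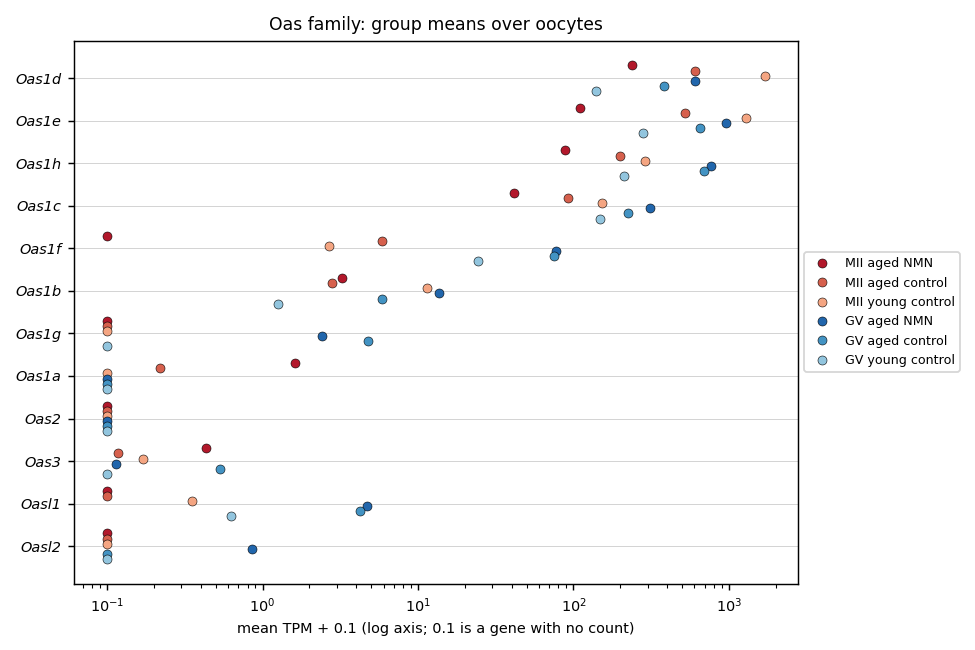
Mean TPM plus 0.1 of 12 Oas family genes over the oocytes of each group, on a log axis, MII groups above GV groups within each gene. Oas1d, Oas1e, Oas1h and Oas1c lie to the right, while Oas2 sits at 0.1, where a gene has no count.

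Genes that sense double-stranded RNA or respond to interferon were scarce. Of 21 listed, 11 passed the filter and 5 reached a group mean of 10 scaled CPM. Dicer1, the nuclease that makes small RNAs, averaged 1388, 2214 and 591 scaled CPM in MII aged NMN, aged control and young control, and 744, 1122 and 1592 in the same GV groups. Ago2, the slicing partner of small RNAs, averaged at most 20.2, Adar, an RNA editing enzyme, 10.9, Ifnar1, an interferon receptor chain, 20.4, and Ddx58, the sensor RIG-I, 15.7. The interferon-induced genes Isg15 and Ifit3 and the sensor gene Zbp1 had no count in any oocyte. At least 2-fold higher and lower were 4 and 1 of the 11 in young maturation (all genes 36.3% and 25.8%), 1 and 3 in aged control maturation (16.9% and 35.9%) and 1 and 6 in aged NMN maturation (16.9% and 46.7%). For age they were 2 and 0 in GV (31.2% and 12.2%) and 2 and 3 in MII (8.45% and 22.6%). For NMN they were 1 and 0 in GV (8.53% and 12.3%) and 1 and 5 in MII (14.7% and 33.1%).

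Likeness of pattern was measured as the root mean square difference of log2(scaled CPM + 1) over the 16 oocytes after centring each gene on its mean, among 5704 genes. The distance grows with a gene's own spread around its mean, which was 0.81 for Oosp1 and 1.53 for Omt2a. Members that were closest to each other were Omt2a and Omt2b (0.19, with shared reads) and Oosp1 and Oosp3 (0.27, with no shared 50-base word). Oosp2 was as far from Oosp1 as 1.79, and Oas1d from Oas1e 1.32. Outside the members, the nearest genes to Oosp1 were Mob4 (0.50), Hpf1 (0.51) and Tm2d3 (0.57), and the same 3 were nearest to Oosp3 (0.54, 0.48 and 0.47). Nearest to Oosp2 were Sap18b (0.44), Banf1 (0.44) and Rpl17 (0.48). Nearest to Omt2a and Omt2b was Daw1 (0.77 for each), and then Smim11 and Rps27l for Omt2a and Tesc and Smim11 for Omt2b (0.78 to 0.82). Nearest to Oas1h was Oas1c of the same cluster (0.55), then Rasa4 (0.57) and Tspan33 (0.58). Nearest to Oas1d were Slc3a2 (0.75), Bpgm (0.80) and Nmnat1 (0.84), and to Oas1e Lamp1 (0.67), Pebp1 (0.71) and Bcap31 (0.72).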

How the data were processed

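Gene tables of 18 single oocyte libraries were read. The submitters' processing notes name TopHat2 2.1.1, Cufflinks, Trim Galore 0.4.5 and FastQC 0.11.8, and the builds mm10 and GRCm38. Which step made the deposited tables is not given in the sources used here. The deposited expected count of each gene was not normalized, per the file headers, and the deposited TPM was scaled for transcript length and library. Expected counts were rounded, and CPM were scaled with TMM factors (edgeR 4.0.16) over 16 oocytes and the 12161 genes that passed filterByExpr at a minimum count of 10. Library totals and exact 95% Poisson intervals limit precision by counting error only. Identical files were counted once, and a library under 100000 counts was left out. GENCODE vM21 gave symbols and coordinates, with a symbol for 46488 of 47069 identifiers. All members were named in every comparison, and similar genes were the 3 nearest with a mean of at least 10 CPM. One listed gene is not reported here. The members and gene lists were chosen with earlier results of these data known. Ratios were computed with 1 CPM added. The ratio calculation was tested on simulated counts in which 200 genes were changed. That setting did not cover shifts over many genes such as those described here. Alternatives were library totals, relative log expression size factors (DESeq2 1.42.0), no filter, TPM means, 0.1 or 5 CPM added, pooled counts, single batches, the small library kept and each oocyte left out.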

Additional observations from a re-analysis of the deposited data

Results flagged for a closer look

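Maturation ran opposite ways for the Omt2 genes in aged NMN and young control mice. Every MII aged NMN oocyte was above every GV aged NMN oocyte, and every MII young control oocyte was below every GV young control oocyte. These mice differed in both age and treatment. In aged controls the log2 ratios of MII over GV were 0.24 for Omt2a and 0.42 for Omt2b, with overlap. The log2 ratio of MII over GV in aged NMN exceeded that in young controls by 5.11 for Omt2a and by 4.95 for Omt2b, a difference that was not tested. The pair shares reads, so these are not independent values. In batch 2 alone the MII over GV ratio in aged NMN was 0.37 for Omt2a and 0.70 for Omt2b, and in young controls -3.46 and -3.26. With the second MII aged NMN oocyte placed in batch 2, as its title literally reads, the aged NMN ratios there were 2.23 and 2.27. The first and second MII aged NMN oocytes had 43.0% and 33.2% of counts from mitochondrial genes. The part of library quality in these ratios was not tested.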

How the results depend on the processing

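No paired analysis was possible because the results come from no test and the labels tie no oocytes of different groups to one animal. Of 111 alternative values of the member medians, 103 moved by less than the spread between oocytes and 8 moved further. Batch 2 alone gave -1.50 for maturation in young controls, -1.68 with the doubly labelled library placed there, and 3.10 for age in MII. That placement, and the batch 2 MII aged NMN oocyte taken alone, were alternatives chosen after seeing the data. Maturation in aged NMN was -1.38 in batch 1 alone. When the title "batch 2" of the second MII aged NMN oocyte was taken literally, it was -1.64 in batch 1 and 0.78 in batch 2. With the 5009-count library kept, age in GV was -0.82 and NMN in GV 0.85. Leaving out 1 oocyte at a time gave medians of -0.61 to 0.37 for maturation in young controls, -0.31 to 0.61 in aged controls and -1.14 to -0.05 in aged NMN. For age the ranges were -0.49 to -0.07 in GV and -0.51 to 0.90 in MII, and for NMN 0.22 to 0.49 in GV and -0.87 to 0.02 in MII. The single genes and counts gave 984 unmoved and 120 moved values, and 6 at least 2-fold values changed sign. Another 72 of 888 gene ratios, under 2-fold at first, also changed sign. The 6 were Oas1d (1.76) and Oas1e (0.46) for maturation in aged NMN in batch 2, Oas1d (1.16) there with the literal title, Omt2b (-0.13) for age in MII in batch 1, Oas1d (0.61) for age in MII without the second MII young control oocyte, and Oas1e (0.13) for NMN in MII in batch 2. The cause was not tested. Means of TPM gave 4 members 2-fold lower for NMN in MII and library totals 3, against 1. Scaling moved the median of all genes most for NMN in MII, which was -0.33 with TMM, -0.64 with library totals and -0.21 with relative log expression factors. With 2 or 3 oocytes a group and no animals named, the number of oocytes limits these values more than depth does.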
